A study of Mus musculus with 6 samples.

Results

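Connexins are the membrane proteins that build gap junctions. They assemble into a ring, the connexon, which docks with its counterpart on a neighbouring cell and lets ions and small metabolites pass, and the connexins a cell makes set what passes and with which neighbours it couples. Gja1 (Cx43) is the connexin most associated with fibroblasts, whereas Gjb2 (Cx26) and Gjb6 (Cx30) are best known from epithelia and from the supporting cells of the inner ear, where mutations in their human counterparts are a common cause of inherited deafness. RNA of 7 connexin genes, Gjb2, Gjb6, Gjb5, Gja1, Gja4, Gja5 and Gjc1, was followed in murine embryonic fibroblasts (MEF) lacking T-cell intracellular antigen 1 (TIA1) or its relative TIAR, RNA-binding proteins that control the translation and splicing of many mRNAs. They were taken as all non-control probes carrying those gene names, which gave 9 of the 55681 probes and 7 of the 34797 gene names on the array. They were chosen because Gjb2 was known to be among the largest rises in TIA1 KO MEF. Connexin values of TIA1 KO against WT, and of TIAR KO against TIA1 KO, are therefore given as a description. This includes counts of members past the threshold. TIAR KO against WT alone is read as a test of the connexin members. It shares its WT arrays with the comparison on which Gjb2 was chosen, so it is not independent of that choice.

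Total RNA was hybridized in Cy3 to 1-colour Agilent SurePrint G3 Mouse arrays, 2 per group and 6 in all. The groups were untreated immortalized MEF: wild-type (WT) cells of strain W4, TIA1 KO cells of strain BALB/c and TIAR KO cells of strain C57BL/6. Each genotype thus comes with its own strain and line, which cannot be told apart here. Replicates were independent samples, but nothing says that they came from separate cell lines, so every p-value measures the spread between arrays of these lines. All arrays lay on 1 slide, with the TIA1 KO arrays in row 2 and the other 4 in row 1, so position on the slide and genotype cannot be told apart for TIA1. Values are normalised intensities on the log2 scale, and where a gene had more than 1 probe the brightest was used. The number of arrays limits the precision. TIA1 KO array 1 stood apart, with a median spot intensity of 458 against 119 to 218 on the other 5 arrays, and with 95% of its negative-control spots under 1410 against 328 on TIA1 KO array 2 and at most 128 on the others. On it 28.8% of probes were well above background by the scanner's own rating, against 35.9% on TIA1 KO array 2 and 42.3% to 47.2% on the rest.

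The deleted genes were read first. Tia1 by its brightest probe had 10.72 and 8.54 in WT, 7.87 and 8.44 in TIA1 KO and 9.56 and 9.58 in TIAR KO. Both TIA1 KO arrays were the lowest, at -1.47 ± 0.79 (log2, SE) from WT, and the difference was not called (limma, adjusted p = 0.288). A second probe gave -1.62 and was not called either (limma, adjusted p = 0.116). The third gave 0.87, so the Tia1 probes disagreed, but it was well above background on TIA1 KO array 2 alone. Tial1, the gene of TIAR, was read best by its second probe, since an outlier spot left its brightest probe without a value on WT array 1. That probe gave 11.71 and 11.09 in WT, 11.85 and 11.49 in TIA1 KO and 10.00 and 9.65 in TIAR KO, and it was lower in TIAR KO by -1.58 ± 0.26 (limma, adjusted p = 0.0254). The deleted part of either gene is not given in the sources used here, and a probe outside it checks nothing about a label. The fibroblast identity of the cells was uneven: Col1a1 and Vim were bright on all arrays, but Thy1, Dcn and Pdgfra, which mark fibroblasts, lay near background in WT, and Lum was not well above background on any array.

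Gjb2 and Gjb6 lie near each other on chromosome 14, and Gja1 is on chromosome 10. Their promoters are shown because Gjb2 and Gja1 were the members that differed most between groups, and Gjb6 is the connexin gene nearest to Gjb2. Each is the 250 bases before the start of transcription, 5′ to 3′ on the gene's strand, from RefSeq (GRCm38.p6). Capitals mark matches on either strand to a GC box (GGGCGG), the sequence read by Sp1, or to an AP-2 site (GCCNNNGGC).
Gjb2, chr14:57104703-57104952, minus strand: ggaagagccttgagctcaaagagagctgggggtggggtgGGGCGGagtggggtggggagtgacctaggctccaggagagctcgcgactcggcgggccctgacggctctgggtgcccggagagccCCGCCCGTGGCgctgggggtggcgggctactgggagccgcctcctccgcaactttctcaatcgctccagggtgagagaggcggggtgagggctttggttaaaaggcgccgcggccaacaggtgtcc
Gjb6, chr14:57133612-57133861, minus strand: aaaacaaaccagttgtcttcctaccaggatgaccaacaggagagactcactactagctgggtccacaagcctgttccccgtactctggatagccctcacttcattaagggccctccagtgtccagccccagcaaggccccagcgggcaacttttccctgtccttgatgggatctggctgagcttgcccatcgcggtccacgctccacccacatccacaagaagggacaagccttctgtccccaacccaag
Gja1, chr10:56377050-56377299, plus strand: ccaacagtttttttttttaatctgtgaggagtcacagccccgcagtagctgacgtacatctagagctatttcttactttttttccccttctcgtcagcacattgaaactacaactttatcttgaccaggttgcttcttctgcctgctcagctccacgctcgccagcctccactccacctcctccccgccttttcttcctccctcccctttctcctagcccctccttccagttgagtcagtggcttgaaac
The Gjb2 window held 2 GC boxes and 1 AP-2 site, which overlaps the second GC box, and 69.2% of its bases were G or C. The Gjb6 and Gja1 windows held neither motif, with 56.8% and 50% G or C. Of the members not printed, Gjb5 held 1 AP-2 site, and Gja4 and Gja5 held 1 GC box each. No window was at hand for Gjc1, so its motifs were not read. No TATA box (TATAAA) was found in the 3 windows. Of 32536 promoter windows of the same length, 33.0% held a GC box, 13.8% an AP-2 site and 12.3% a TATA box, so neither motif is particular to Gjb2. The share of windows with 2 GC boxes, or with both motifs, was not counted.

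Gjb2 RNA was read by 1 probe at chr14:57717629-57717688 (mm9, minus strand). It had 6.48 and 6.47 in WT, 14.63 and 14.94 in TIA1 KO, and 6.56 and 6.63 in TIAR KO. Only the 2 TIA1 KO arrays were well above background, and they stood far from the other 4, which lay between 6.47 and 6.63. Before normalization, the spot read 31122 and 34770 in TIA1 KO, against 125 and 119 in WT and 104 and 93.2 in TIAR KO, so it was also far above the negative controls of TIA1 KO array 1. The fitted difference of TIA1 KO from WT was 8.31 on the log2 scale, but WT was not above background, so only a lower bound is measured. Gjb2 was at least 239-fold higher in TIA1 KO than in WT and at least 232-fold higher than in TIAR KO. These bounds hold for loess and quantile scaling, and with a common array median the fitted difference was 7.23 from WT and the reverse one, TIAR KO minus TIA1 KO, -7.34. WT and TIAR KO were both dim, so no fold change is given between them (limma, adjusted p = 0.732). In order of level, TIA1 KO came first, and TIAR KO and WT could not be told apart. The longest stretch that the probe shared with any other probe of the array was 12 of its 60 bases.

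**Figure D1:**
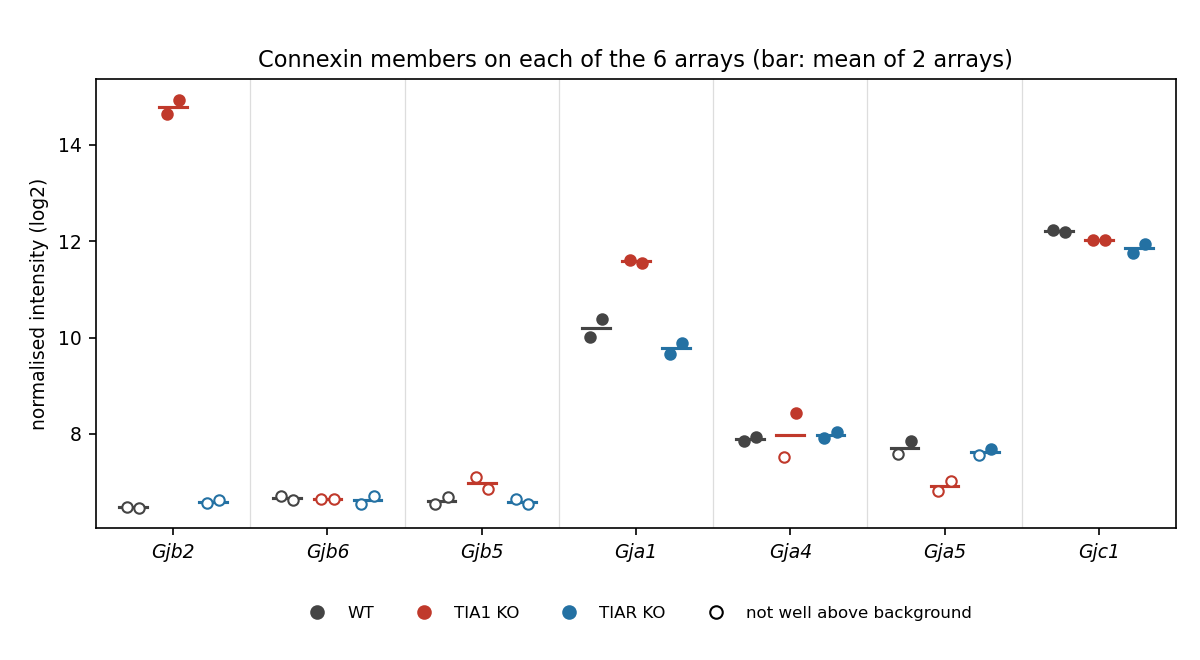
Normalised intensity (log2, vertical axis) of the 7 connexin members on each array, with 2 points per group, a bar at their mean and open points where the probe was not well above background. Gjb2 sits at 14.63 and 14.94 in TIA1 KO and between 6.47 and 6.63 on all other arrays, Gja1 is highest in TIA1 KO, and Gjb5 and Gjb6 stay near background throughout; heights are not comparable between genes, since each probe has its own brightness.

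Gjb6 partners Gjb2 in mixed channels of the inner ear and skin. It had 6.70 and 6.62 in WT, 6.65 and 6.64 in TIA1 KO and 6.55 and 6.72 in TIAR KO. No array was well above background and the groups overlapped, so Gjb2 was read in TIA1 KO MEF without a reading of the nearest connexin gene. Gjb5 (Cx31.1), a connexin of skin and placenta, had 6.54 and 6.68 in WT, 7.10 and 6.85 in TIA1 KO and 6.65 and 6.54 in TIAR KO, again with no array well above background. For TIAR KO against WT, adjusted p was 0.940 for Gjb6 and 0.967 for Gjb5 (limma), and no fold change is given for probes that were dim in both groups.

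Gja1 was read by a probe printed as 10 spots, well above background on all 6 arrays. Its averages were 10.02 and 10.37 in WT, 11.62 and 11.55 in TIA1 KO and 9.65 and 9.89 in TIAR KO. The TIA1 KO arrays were highest, the TIAR KO arrays lowest, and no 2 groups overlapped. TIA1 KO lay 1.39 ± 0.19 (log2, SE) above WT and TIAR KO lay -0.42 ± 0.19 from it, with a 95% confidence interval from -0.91 to 0.06 (limma, adjusted p = 0.314). Spots of 1 array had SDs between 0.27 and 0.67, which the average over spots reduces. The rise in TIA1 KO rested on the scaling: with the arrays set to a common median in place of loess and quantiles, the median of all probes moved to -0.68 and Gja1 to 0.04, which is 0.72 above that median. With the scanner's processed signal Gja1 stayed at 1.38, but the median of all probes moved to 1.98, so Gja1 lay -0.60 from it. Gja1 was at 1.40 with the authors' log2 table, and at 1.41 with an offset of 16 and without loess, though not called in these settings. Before normalization, its spots averaged 1252 and 1355 in WT, 3462 and 3295 in TIA1 KO and 870 and 808 in TIAR KO.

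Gjc1, Gja4 and Gja5 were the other alpha and gamma members. Gjc1 (Cx45), found early in heart and smooth muscle, was bright everywhere, with 12.24 and 12.19 in WT, 12.02 and 12.02 in TIA1 KO and 11.76 and 11.94 in TIAR KO. WT was highest and TIAR KO lowest, by -0.36 ± 0.15 with a 95% confidence interval from -0.74 to 0.01 (limma, adjusted p = 0.264). With a common array median Gjc1 was at -1.76 in TIA1 KO against WT, so its place near WT rested on the scaling, and at -0.80 in TIAR KO against WT (limma, adjusted p = 0.0218), still short of a 2-fold change. Gja4 (Cx37), a connexin of endothelium and oocytes, had 7.85 and 7.94 in WT, 7.52 and 8.44 in TIA1 KO and 7.90 and 8.04 in TIAR KO. The 2 TIA1 KO arrays enclosed all the others, and TIA1 KO array 1 was not well above background. In TIAR KO, Gja4 differed from WT by 0.08 (limma, adjusted p = 0.848).

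Gja5 (Cx40), a connexin of atrial muscle and arteries, was read by 3 probes, and they disagreed. Its brightest probe had 7.57 and 7.85 in WT, 6.80 and 7.02 in TIA1 KO and 7.56 and 7.68 in TIAR KO, lowest in TIA1 KO, and was well above background on 1 WT and 1 TIAR KO array. The second had 6.82 and 6.64 in WT, 8.61 and 8.00 in TIA1 KO and 7.05 and 6.81 in TIAR KO, highest in TIA1 KO, and was well above background on TIA1 KO array 2 alone. The third was dim on all arrays. No direction is therefore given for Gja5 in TIA1 KO. For TIAR KO against WT, the adjusted p of the 3 probes was 0.842, 0.607 and 0.733 (limma).

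A probe was called where the limma p, adjusted over all 55681 probes, was under 0.05 and the fold change above 2. In TIAR KO against WT, 0 of the 7 members were called, where 7.18% of all genes were, and where 13.7% were among genes rated well above background on a group's 2 arrays, as 3 members were. At an unadjusted p under 0.05, without regard to fold, 11247 of the 55681 probes passed in that comparison. No member probe did, and the lowest was that of Gjc1 (limma, unadjusted p = 0.0556). In TIA1 KO against WT, Gjb2 and Gja1 met the rule, 2 of 7 beside 4.51% of all genes, or 2.88% counting higher genes alone. The same 2 met it, lower, in TIAR KO against TIA1 KO, beside 4.18% of all genes, or 2.12% counting lower genes alone. Nothing is read from these last counts, since Gjb2 was chosen on the TIA1 KO arrays. The groups did not overlap for 65.7% of all genes in TIA1 KO against WT and for 50.9% in TIAR KO against WT. The median difference over the 7 members was 0.08 in TIA1 KO and -0.03 in TIAR KO, beside -0.07 and -0.01 over all genes. In TIA1 KO against WT the fitted value of Gjb2 lay between 7.23 and 12.07 in the 15 alternative settings, also a description. With the processed signal, and without WT array 1 or WT array 2, 0 probes of the whole array were called, and Gjb2 stood at 12.07, 8.32 and 8.30.

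Of the other connexin genes on the array, 9 are reported, which is not the whole family: Gjb1, Gja3, Gja6, Gja10, Gjc3, Gjd2, Gjd3, Gjd4 and Gje1. Only Gjb1 (Cx32), the connexin of liver and of myelinating Schwann cells, was rated above background on the 2 arrays of any group. It had 8.82 and 8.71 in WT, 7.52 and 8.55 in TIA1 KO and 8.75 and 9.13 in TIAR KO, with both TIA1 KO arrays lowest and TIA1 KO array 1 not well above background. Neither knockout was called against WT for any of the 9, beside 4.51% of all genes in TIA1 KO and 7.18% in TIAR KO. The median difference over the 9 was -0.07 in TIA1 KO and 0.08 in TIAR KO. At an unadjusted p under 0.05, 15484 of the 55681 probes of the array passed in TIA1 KO against WT. Of the 9 genes only Gja6, which was dim on all arrays, did so there.

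**Figure D2:**
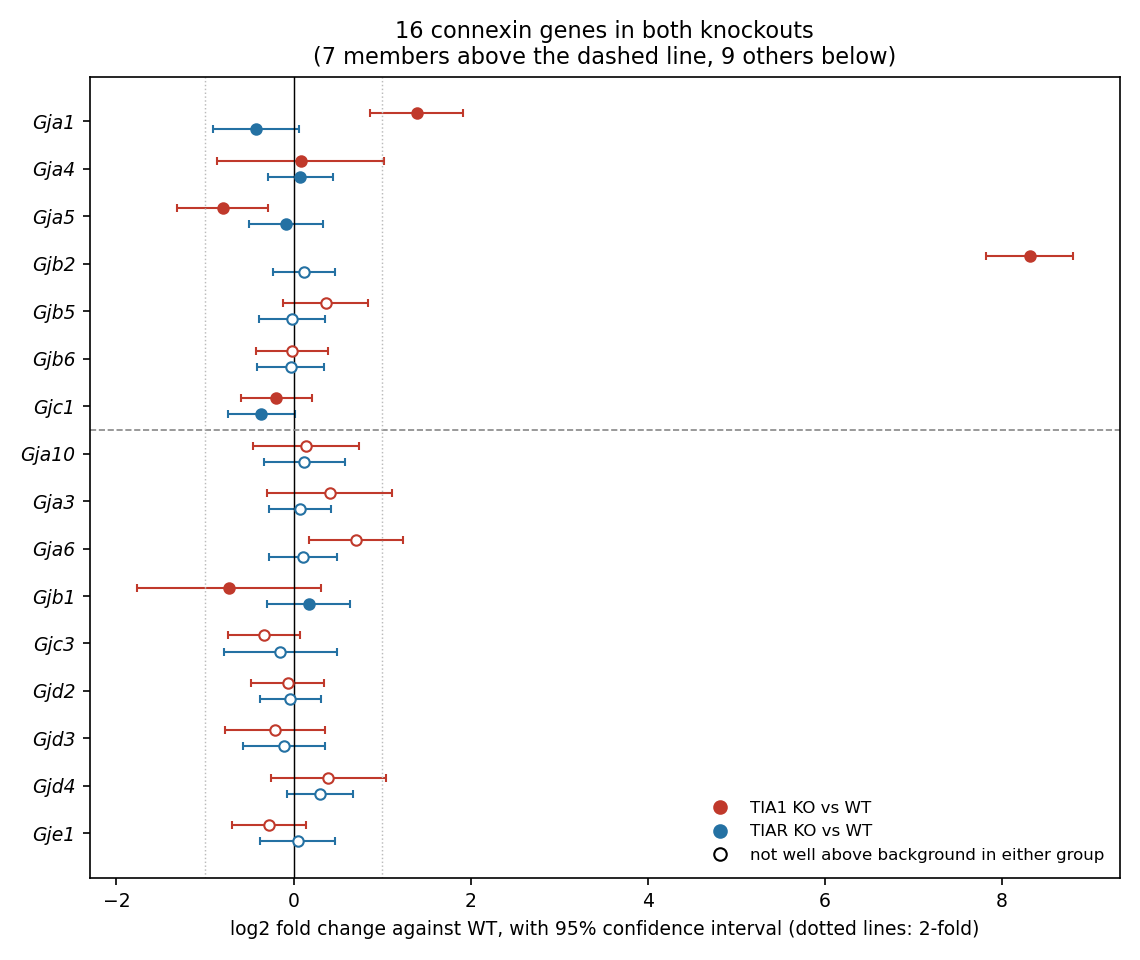
Log2 fold change against WT (horizontal axis, points with 95% confidence intervals from limma) for 16 connexin genes in TIA1 KO and TIAR KO MEF, with the 7 members above the dashed line; open points mark probes not well above background in either group, and dotted lines mark 2-fold. Gjb2 lies at 8.31 in TIA1 KO and is an open point in TIAR KO, and Gja1 lies at 1.39 and -0.42.

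The surroundings of Gjb2 were read next, from 31 probes within 500 kb of its own, the Gjb2 probe included. The predicted genes Gm10871, 2.0 kb away, and Gm4491, 14.6 kb away, were the nearest and were dim on all 6 arrays. Gjb6, 24.6 kb away, and Gja3 (Cx46), 62.9 kb away on the other side, were not well above background on any array. Cryl1, the gene of a crystallin-like dehydrogenase, lies 176.4 kb away and had 10.47 and 10.24 in WT, 12.66 and 12.71 in TIA1 KO and 9.33 and 9.15 in TIAR KO. It was highest in TIA1 KO and lowest in TIAR KO, by 2.33 ± 0.17 and -1.12 ± 0.16 (limma, adjusted p = 0.0132 and 0.0183). Its second probe, 243.3 kb away, gave 0.17 ± 0.47 in TIA1 KO, so the probes of Cryl1 disagree there, whereas in TIAR KO it was dim and at least 2.06-fold lower than in WT (limma, adjusted p = 0.0173). Il17d, a cytokine gene 444.3 kb away, had 8.06 and 8.36 in WT, 12.34 and 12.50 in TIA1 KO and 10.14 and 10.03 in TIAR KO. It rose in both knockouts, by 4.21 ± 0.19 and 1.88 ± 0.17 (limma, adjusted p = 0.00544 and 0.00363), but its second probe, at 1.74 and 0.71, was called in neither (limma, adjusted p = 0.0690 and 0.0951). Ift88, a gene of ciliary transport 419.1 kb away, rose by 1.19 ± 0.15 in TIA1 KO (limma, adjusted p = 0.0395). Mphosph8, 401.5 kb away, rose by 1.01 ± 0.16 in TIAR KO (limma, adjusted p = 0.0220). In each comparison 4 of the 31 probes were called, beside 3.54% of all probes in TIA1 KO and 5.76% in TIAR KO, and the Gjb2 probe is among the 4 in TIA1 KO.

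**Figure D3:**
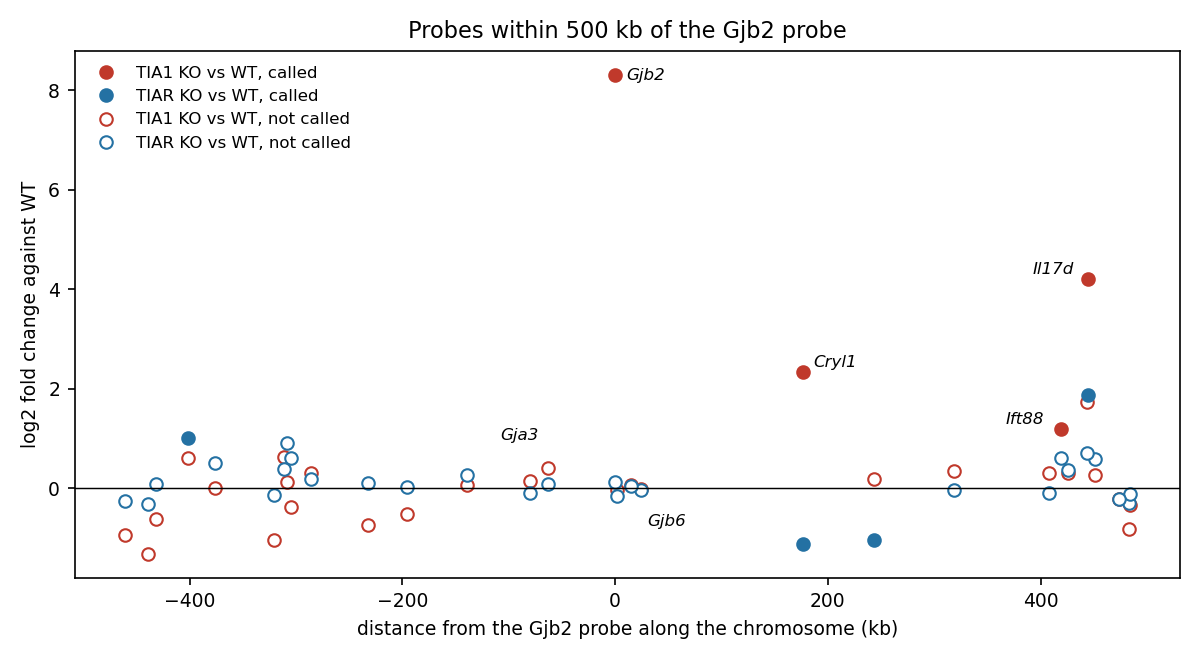
Log2 fold change against WT (vertical axis) of the 31 probes within 500 kb of the Gjb2 probe, by distance along the chromosome in kb, with filled points where a probe was called. Gjb2 stands at 8.31 in TIA1 KO while Gjb6 and Gja3 on either side lie near 0, and the called probe nearest to it in either comparison is that of Cryl1 at 176.4 kb.

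Pannexins form channels of a similar build that open to the outside of the cell. Of 3, Panx1, which releases ATP, had 9.34 and 9.66 in WT, 12.61 and 12.71 in TIA1 KO and 12.91 and 12.75 in TIAR KO. Both knockouts lay above WT, by 3.17 ± 0.19 and 3.34 ± 0.17 (limma, adjusted p = 0.00858 and 0.000707), and the knockouts were not called against each other. Panx1 lay 1.72 and 2.96 above WT with a common array median, and TIAR KO then lay 1.24 above TIA1 KO. Panx3 was at least 2.87-fold higher in TIA1 KO, where 1 of 2 arrays was well above background (limma, adjusted p = 0.0419), a call made in 8 of the 14 alternatives that gave a value. In TIAR KO, where both arrays were well above background at 7.57 and 7.61 beside 6.94 and 6.73 in WT, it was at least 1.55-fold higher (limma, adjusted p = 0.0466), short of the fold that a call required. Panx2 was dim on all arrays.

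Among genes rated well above background on a group's 2 arrays, 1421 of 17138 were called in TIA1 KO and 2497 of 18216 in TIAR KO. Most partner genes, regulators and fibroblast markers read below were so rated, which makes these shares the closer comparison for them. Of 17 genes whose proteins bind connexins, anchor or phosphorylate them or mark them for turnover, 0 were called in TIA1 KO, beside 4.51% of all genes, and 3 rose and 0 fell in TIAR KO, beside 7.18%. Those called in TIAR KO were Cdh1 (E-cadherin), at least 2.53-fold higher, Ezr (ezrin, which ties membranes to actin) at 1.17 ± 0.14 and Dbn1 (drebrin, which binds Cx43) at 1.03 ± 0.20. With a common array median Ezr was at 0.71 and Dbn1 at 0.57 in TIAR KO, and neither was called. In TIA1 KO both were called lower in that setting, Ezr at -2.19 and Dbn1 at -1.36 (limma, adjusted p = 0.0001 and 0.0198). The median of all probes was then -0.68, and the count of 0 in TIA1 KO rested on the scaling. Of all 34797 genes, 568 fell in TIA1 KO and 983 in TIAR KO. Of 14 tight junction and desmosome genes, 0 rose and 3 fell in TIA1 KO, beside 4.51% of all genes called in either direction. In TIAR KO 0 rose and 1 fell, beside 7.18%. In TIA1 KO these were F11r, a tight junction adhesion molecule, which went from 14.37 and 14.33 in WT to 12.29 and 12.41, and the plakophilins Pkp1 and Pkp2 at -3.10 ± 0.35 and -1.82 ± 0.19. Pkp1 was not well above background on TIA1 KO array 1 and was at -2.64 without that array and -3.57 without TIA1 KO array 2. Under a common array median F11r was at -3.62 and Pkp2 at -3.44. In TIAR KO it was Pkp1, at -2.80 ± 0.14.

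The list of regulators held transcription factors known to act on connexin promoters. In TIA1 KO 4 of the 13 rose and 2 fell, beside 4.51% of all genes called, and in TIAR KO 2 rose and 2 fell, beside 7.18%. Of the 13, 9 were rated well above background on a group's 2 arrays in either comparison. Tfap2a, the gene of AP-2 alpha, had 6.73 and 6.72 in WT, 9.87 and 10.41 in TIA1 KO and 6.79 and 6.99 in TIAR KO. Like Gjb2, it was well above background on the 2 TIA1 KO arrays alone, where it was at least 9.08-fold higher than in WT (limma, adjusted p = 0.0122) and at least 8.81-fold higher than in TIAR KO (limma, adjusted p = 0.0151). These folds are of its brightest probe, and its probes differed: the fitted difference from WT was 3.41 for that probe and 1.86 for the median over probes. Gata4, a factor of heart development, had 6.92 and 6.56 in WT, 10.31 and 10.64 in TIA1 KO and 10.65 and 10.74 in TIAR KO. It was dim in WT only, and at least 12.0-fold higher in TIA1 KO and 14.0-fold higher in TIAR KO. The bounds hold for loess and quantile scaling, and with a common array median the fitted difference of TIA1 KO from WT was 2.86 for Tfap2a and 2.65 for Gata4.

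Tbx5, a heart and limb factor that activates Gja5, was lower in both knockouts, with 11.05 and 11.03 in WT, 6.97 and 7.58 in TIA1 KO and 6.69 and 6.84 in TIAR KO. It was dim in both, at least 9.43-fold and 17.1-fold lower (limma, adjusted p = 0.0117 and 0.000268). Foxc2, a factor of lymphatic valves where Gja4 is made, rose by 4.52 ± 0.21 and 2.21 ± 0.41 (limma, adjusted p = 0.00582 and 0.0360). Tbx3, a repressor of Gja1 and Gja5 in the heart, was at 12.49 and 12.53 in WT, 9.82 and 9.87 in TIA1 KO, where array 1 was not well above background, and 12.62 and 12.72 in TIAR KO. By limma it fell by 2.66 in TIA1 KO (SE 0.15, adjusted p = 0.00773), and it was at -3.14 in the authors' log2 table and at -4.17 with a common array median. Klf4 rose in TIA1 KO by 1.54 ± 0.16, but was at 0.04 with a common array median (limma, adjusted p = 0.954). The median of all probes was -0.68 in that setting. By limma Jun, a part of AP-1, fell by 2.14 in TIAR KO (SE 0.41, adjusted p = 0.0416). Without TIAR KO array 1 Jun was at -2.78 and Foxc2 at 2.82 in TIAR KO, and without TIAR KO array 2 they were at -1.51 and 1.61. Whether any of these factors acts on a connexin gene in these cells was not tested.

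**Figure D4:**
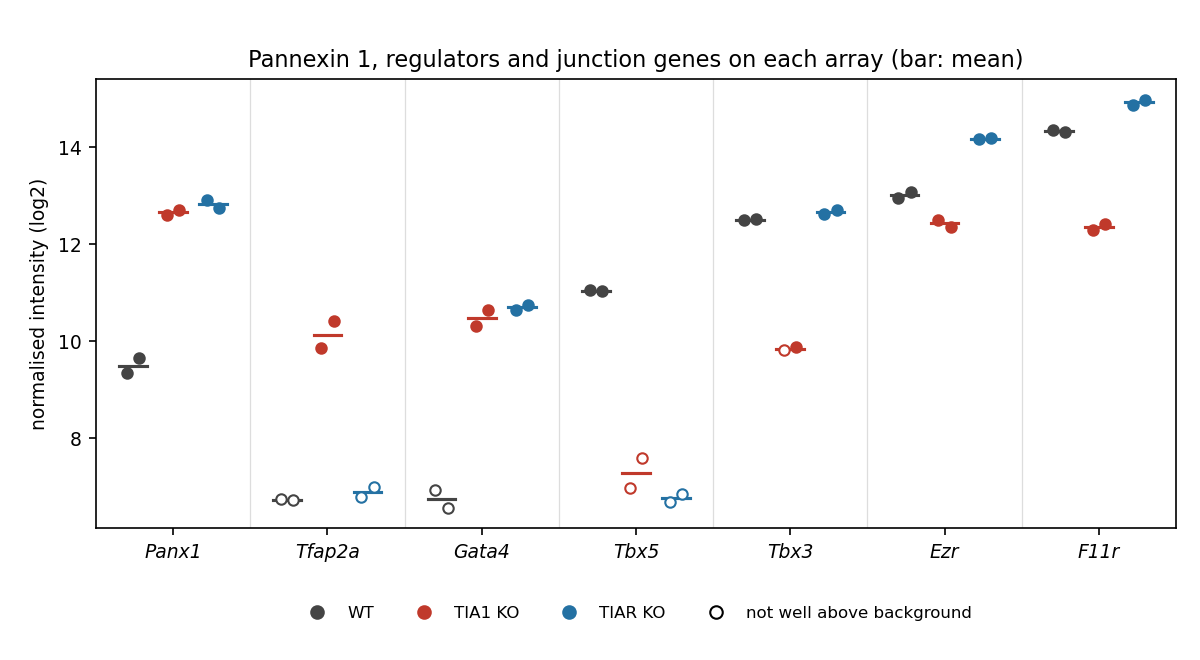
Normalised intensity (log2, vertical axis) of Panx1, the regulators Tfap2a, Gata4, Tbx5 and Tbx3, and the junction genes Ezr and F11r on each array, with a bar at the mean of 2 arrays and open points where a probe was not well above background. Tfap2a is above background in TIA1 KO alone, Gata4 and Panx1 are high in both knockouts, and Tbx3 and F11r are lowest in TIA1 KO; heights are not comparable between genes.

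Markers of other cells were read beside these values. In bulk RNA, fewer cells of a type and less RNA per cell cannot be told apart. Of 7 epithelial markers, 2 rose in TIA1 KO, beside 4.51% of all genes called. These were Krt8 and Krt19, at 1.23 ± 0.17 and 1.05 ± 0.15 (limma, adjusted p = 0.0444 and 0.0498). With a common array median Krt8 was at 0.40 and Krt19 at -0.54, where the median of all probes was -0.68. Krt8 was called in 5 of 15 alternative settings. In TIAR KO 3 rose, Cdh1, Krt8 and Krt18, beside 7.18% of all genes called. The summed level of the list was 5673 and 6036 in WT, 10791 and 11437 in TIA1 KO and 8699 and 8116 in TIAR KO (linear scale), a sum that follows its brightest probe, that of Krt19, since each probe has its own brightness. Epcam and Grhl2 were well above background on 1 array each, and Esrp1 on 3. Esrp1, a splicing factor of epithelia, was highest in WT, with 8.21 and 8.36. It was at 6.76 and 7.39 in TIA1 KO, where it was dim, and at 7.35 and 7.58 in TIAR KO. Grhl2 was at 7.35 and 7.50 in WT and dim in both knockouts, with 6.75 and 6.83 in TIA1 KO, and neither gene was called. Of 6 keratinocyte markers 0 were called in either knockout, beside 4.51% of all genes in TIA1 KO and 7.18% in TIAR KO. Their sums were 3246 and 2766 in WT, 4275 and 3297 in TIA1 KO and 2883 and 3143 in TIAR KO. These sums again follow the brightest probe, that of Trp63, and Krt15 and Ivl were dim on all arrays. The median difference over the 6 was -0.44 in TIA1 KO, where 2 of 6 were above WT. Sfn went from 9.43 and 8.77 in WT to 6.26 and 7.51 in TIA1 KO, and Krt14 from 7.87 and 7.95 to 6.80 and 7.40. Both genes were dim in TIA1 KO. The part of such cells in the level of Gjb2 was not tested.

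Of 7 endothelial markers 0 were called in either knockout, beside 4.51% of all genes in TIA1 KO and 7.18% in TIAR KO. Their sums were 3330 and 3641 in WT, 3833 and 3667 in TIA1 KO and 3825 and 4155 in TIAR KO. Kdr was brightest, and Cdh5, Tie1 and Esam were dim on all arrays. Of 4 macrophage markers 0 were called against WT, beside the same shares of all genes, with Cd68 brightest. Of 9 fibroblast markers 6 rose in TIA1 KO and 7 in TIAR KO, and of 5 smooth muscle markers 2 and 4, beside 4.51% and 7.18% of all genes called. With a common array median Col1a1 was at 0.50 and Col1a2 at 0.99 in TIA1 KO, and neither was called. Dcn was called higher in TIA1 KO, with a fitted difference of 2.67 (limma, adjusted p = 0.00773). For Dcn, WT array 1 and TIA1 KO array 1 were not well above background. Dcn in TIA1 KO was at 1.745 with the authors' log2 table and at 1.60 without loess. It was called in neither setting (limma, adjusted p = 0.105 and 0.111). Thy1 was bright in TIAR KO alone, with 6.63 and 6.98 in WT, 7.11 and 7.48 in TIA1 KO and 14.84 and 14.74 in TIAR KO. Acta2, smooth muscle actin, was high in both, 4.85 ± 0.20 above WT in the TIA1 line and 5.54 ± 0.19 in the TIAR line (limma, adjusted p = 0.00492 and 0.000254). The part of these differences in connexin levels was not tested.

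Genes whose pattern was most like that of Gjb2 were sought among 18312 genes rated above background on the 2 arrays of any group, by the root mean square difference of the 6 log2 values, each gene taken relative to its own WT mean. Lrrc32, the gene of a receptor that holds latent TGF-beta, was nearest at 0.31, followed by Il1rl1, the receptor of interleukin-33, at 0.47, Prl2c5, a prolactin-family gene, at 0.49, Sfrp2, a secreted Wnt modulator, at 0.58 and Efemp1, a fibulin, at 0.69. Gjb2, Sfrp2 and Efemp1 were dim in WT, so their distances rest in part on background. Lrrc32 had 7.06 and 6.85 in WT, 14.81 and 15.06 in TIA1 KO and 7.44 and 7.54 in TIAR KO, low in WT and TIAR KO and high in TIA1 KO as Gjb2 was. For Gja1, whose change was smaller, 378 genes lay within 0.5, and the nearest were Stmn4 and Ikbke at 0.13, a lincRNA on chromosome 15 at 0.13, Pam at 0.14 and Adarb1 at 0.15. These distances describe 6 arrays of 3 cell lines and say nothing of shared control.

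**Figure D5:**
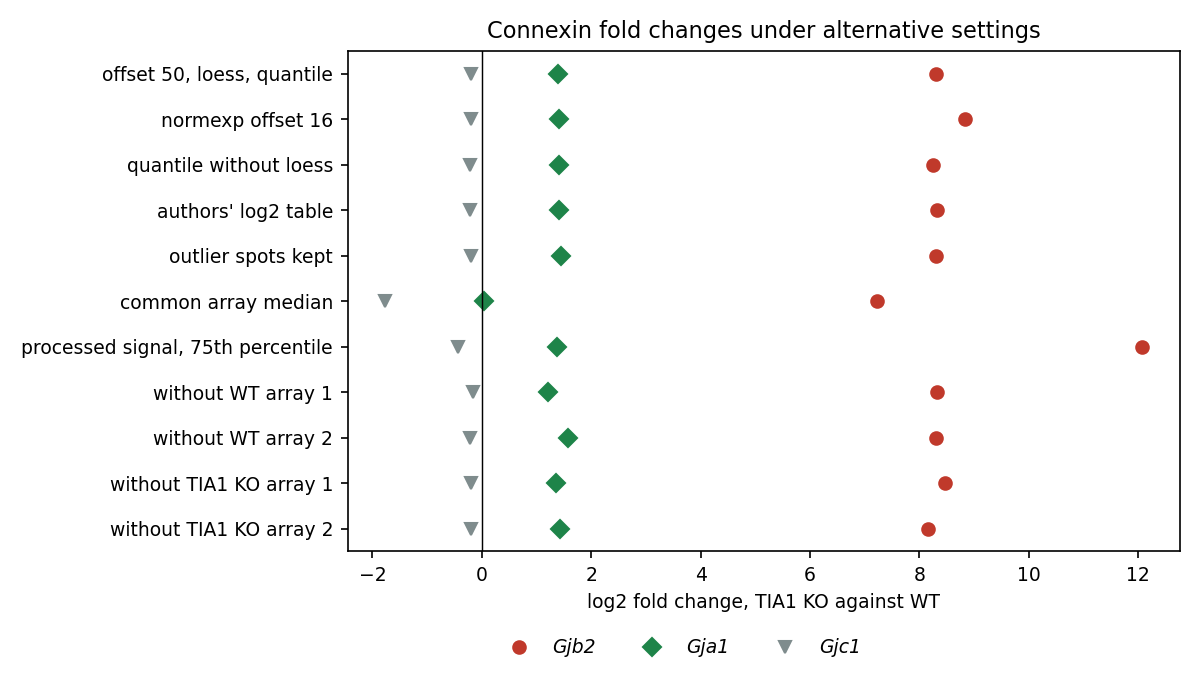
Log2 fold change of TIA1 KO against WT (horizontal axis) for 3 connexin genes under the main processing (top row) and 10 alternatives (rows). Gjb2 stays between 7.23 and 12.07, whereas Gja1 moves to 0.04 and Gjc1 to -1.76 with a common array median.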

How the data were processed

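The authors hybridized total RNA of each MEF sample to a 1-colour array. For each array they deposited the scanner software's mean intensity and local background of every spot, its processed intensity and its quality flags (Feature Extraction 10.7.3.1, probe positions on mm9), and for the series a table of log2 values that they normalized. Per the methods, they used normexp with an offset of 50, log2, loess and quantile normalization, and limma.

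Here mean intensities were corrected by normexp (offset 50), taken to log2, adjusted by loess and by quantiles over all spots, without control and outlier spots, and averaged per probe (limma 3.58.1, R 4.3.3). Correlations with the deposited log2 table were 0.997 to 0.999. The scanner software's rating decided whether a probe was well above background, with 50% or more of its spots required on that array. No probe was left out as dim, and no spot was saturated. Normexp compresses differences of dim probes, so folds against a dim group are lower bounds: the brighter group's mean was set against, per array, the higher of the lowest signal among probes well above background and the dim probe's own.

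Each comparison was fitted with limma (lmFit, eBayes) on its 4 arrays, and p-values were adjusted by Benjamini-Hochberg over 55681 probes. Symbols of 17 of 18 connexin probes matched RefSeq by accession. Some genes of the lists are not reported here, so list counts cover the genes given. Named genes were the targets, connexins, pannexins and those called from them, at most the 4 largest changes per list and comparison elsewhere, the genes within 500 kb of Gjb2 and the 5 nearest in pattern. Tbx3, Klf4, Col1a1, Col1a2 and markers that were not called fall outside this rule and were named after their values were seen. Gene lists were written from background knowledge, and the connexin members and all lists were chosen with earlier results of these data known. Alternatives were the processed signal scaled to its 75th percentile, an offset of 16, no loess, a common array median, a filter on dim probes, outlier spots kept, the median over the probes of a gene, all 3 groups in the fit, an intensity trend, the authors' log2 table, the replicate number as a block, and leaving out each array.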

Additional observations from a re-analysis of the deposited data

Results flagged for a closer look

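In the genes below, both arrays of TIA1 KO MEF lay on 1 side of WT and both arrays of TIAR KO MEF on the other. The share of all genes with this pattern was not counted. Groups without overlap were common, at 65.7% of all genes in TIA1 KO and 50.9% in TIAR KO against WT. Values are TIAR KO minus TIA1 KO on the log2 scale. Since the genes were picked for lying on opposite sides of WT, their p-values here are a description and no test of that. For the connexin Gja1 it was -1.81, given without a test because it uses the arrays on which Gjb2 was chosen. Among the partner and junction genes they were 1.75 for Ezr, 2.58 for F11r and 2.29 for Pkp2 (limma, adjusted p = 0.0210, 0.0101 and 0.0120). Without either TIAR KO array, or with the replicate block, 0 probes of the whole array were called in this comparison, and with the processed signal these 3 genes were not (adjusted p = 0.0695, 0.0622 and 0.0676). Among the regulators they were 2.82 for Tbx3 (limma, adjusted p = 0.00858) and -3.06 for Jun, which failed the adjustment (limma, adjusted p = 0.0550). Des, the gene of the muscle filament desmin, was not well above background in TIA1 KO, so the fitted 1.54 is no measured fold. It was at least 2.08-fold higher in TIAR KO (limma, adjusted p = 0.0329). With the processed signal and with an intensity trend Des was not called (limma, adjusted p = 0.163 and 0.0745). With a common array median, Tbx3 was at -4.17 and -0.28 from WT in TIA1 KO and TIAR KO, and Jun at -0.64 and -2.58. The median of all probes was then -0.68 in TIA1 KO and -0.03 in TIAR KO, so Jun in TIA1 KO lay near that median. In each of the 7 genes, TIA1 KO and TIAR KO carry other differences of strain, cell line and slide row, and the part of these was not tested.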

How the results depend on the processing

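Counts of connexin members that use the TIA1 KO arrays are a description. Of the 7 members, 2 were called in TIA1 KO against WT; 0 were with the processed signal, 1 each with an offset of 16, without loess, with the authors' log2 table and with the replicate block, and 0 to 2 with an array left out. With a common array median 2 were called there too, but Gjc1, at -1.76, took the place of Gja1. In TIAR KO against TIA1 KO, 2 were called; 1 each with the processed signal and with a common array median, 0 with the replicate block, and 0 to 2 with an array left out, 0 without either TIAR KO array. In TIAR KO against WT, 0 members were called in all alternatives. Counts over the 16 connexin genes reported were the same as over the members in these settings, except that 3 were called in TIA1 KO against WT with a common array median, Gjb1 being the third, and that up to 3 were called when TIA1 KO array 2 was left out. With a common array median Krt19 in TIA1 KO was at -0.54, where the median of all probes was -0.68. Its change of sign is therefore not separate from the shift of all probes. Array-wide counts moved too. In TIA1 KO against WT 1969 probes were called, 0 with the processed signal, 671 with the replicate block, 16041 with a common array median, 10735 without TIA1 KO array 2, and 0 without either WT array. Deviations of same-numbered arrays correlated at 0.03, 0.08 and -0.07, so no large effect shared by replicate number was seen after scaling. Whether same-numbered samples were prepared together is not known. For a lone array, its spread was taken from the other group. The cause of these changes was not tested. Precision is limited by 2 arrays per group and, for dim probes, by the background of TIA1 KO array 1.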
